A study of Bos taurus and Sus scrofa with 10 samples.

Results

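The step from the 2-4 cell to the 8-16 cell cow embryo was described gene by gene, as the difference between the 8-16 cell library and the 2-4 cell library. Members were all rows of the cow table with at least 1 RPM (reads per 1000000 reads of the library) in at least 1 of these 2 libraries. They were 12405 of 22845 rows, and 948 of the 12405 carried an identifier without a gene symbol. RNA was sequenced from Bos taurus at 5 stages (the oocyte, embryos of 2-4 cells, embryos of 8-16 cells, the morula and the blastocyst) and from pig at the same stages, with 1 library per stage and species. Both cow groups used here were embryos described by their cell number alone. The labels give no breed, treatment, hours after fertilisation, way of producing embryos or number of embryos per library. There were no replicates, so no difference below could be compared with the spread between embryos and no test was run. "Rose" and "fell" mark a difference of at least 2 on the log2(RPM + 1) scale, which is 4-fold on that scale. Since RPM is a share of the library, fewer copies per embryo and a smaller share of a larger RNA pool cannot be told apart, and in embryos of several cells neither can fewer cells of a kind and less RNA per cell.

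The early embryo starts with RNA and protein that the growing oocyte stored, because the genome is almost silent after fertilisation. Stored messages carry short poly(A) tails and are released, used and destroyed in steps, with deadenylation by the CCR4-NOT complex and uridylation among the known routes. Transcription from the embryo's own genome starts weakly and then strongly, and in cattle the strong phase falls at about the stage studied here. Oocyte messages such as those of the egg coat and of meiotic arrest are then lost, and messages for making RNA and ribosomes are among the earliest embryonic products.

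The 2-4 cell library held 4438610 reads and the 8-16 cell library 5432346, of which 74.8% and 72.6% lay in gene rows. A single read was worth 0.225 and 0.184 RPM, and the floor of 3 reads, the most that a count of 0 allows, was 0.676 and 0.552 RPM. Reads from the mitochondrial genome took 2.74% of the 2-4 cell library and 10.7% of the 8-16 cell library. All 10 markers of oocyte and early embryo reached 1 RPM in both libraries, with a summed level of 6858 RPM at the 2-4 cell stage and 2266 RPM at the 8-16 cell stage. Markers of sperm and of blood cells stayed under 1 RPM in both libraries, and PRM1, PRM2, HBA, HBB and PTPRC had 0 reads in each. Of the 13 markers of cumulus and granulosa cells, the somatic cells around the oocyte, 11 were compared (median -1.81). The summed level of the 13 was 481 RPM and 121 RPM, with FOXL2 at 0 reads in both libraries. Of the compared markers 3 fell (PTGS2, 60.8 to 4.42 RPM; VCAN, 63.5 to 8.84 RPM; STAR, 176 to 31.7 RPM) and TNFAIP6 rose, with 0 reads and 35 reads; their part in the differences below was not tested.

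Of the 12405 compared genes, 3372 changed by 2 or more (27.2%). Among them 1567 rose (12.6%) and 1805 fell (14.6%), and the median difference of all compared genes was -0.44, with quartiles at -1.51 and 1.04. The split depends on the scaling: with both libraries set to the same median, 1799 genes rose and 1353 fell, and the median of all genes moved up by 0.23. Rises were larger than falls, since 352 genes rose by 4 or more and 43 fell by as much, and 60 rose by 6 or more and 0 fell by 6. Of the risers, 337 had 0 reads at the 2-4 cell stage, and 237 of these had 0 reads in the oocyte library as well. Loss was seldom complete in these counts: 51 of the 1805 fallers had 0 reads at the 8-16 cell stage and 1498 still had at least 1 RPM. The genes that rose took 3.11% of the 2-4 cell reads and 23.7% of the 8-16 cell reads, while the genes that fell went from 20.9% to 3.11%. Outside the mitochondrial genome the risers went from 1.75% to 17.4%. Just inside the minimum, ADARB2 and ALDH16A1 had 6 reads (1.10 RPM) at the 8-16 cell stage, and just outside it 5S_rRNA and ACSM1 had 5 reads (0.920 RPM). Genes at low level were sensitive to the constant added before the logarithm: with 5 RPM in place of 1 RPM, the differences of BCL2, BCL2L1, CHST4, DKK1, DSC2, FEN1, FPGT, HK1, IGF2BP1, NDUFV2, PABPN1L, PAN2, SOX2, SPRED2, TAF7L, TBPL2, TEAD4 and TNFAIP6, all given here, lay inside the threshold. The functional groups below are lists of genes, each described by its counts of rises and falls and the median difference of its compared genes, to be read against 12.6%, 14.6% and -0.44 over all genes. For the lists of actin and tubulin, tRNA synthetases, transcription elongation, G1 and S phase, Mediator, proteasome, SLC25 carriers, TFIID and mRNA decay, the median was below 0 as deposited and above 0 under at least 1 other scaling. With a minimum of 5 RPM the medians of lysine demethylases (0.17) and of RNA polymerase II and general factors (-0.30) also changed sign.

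**Figure D1:**
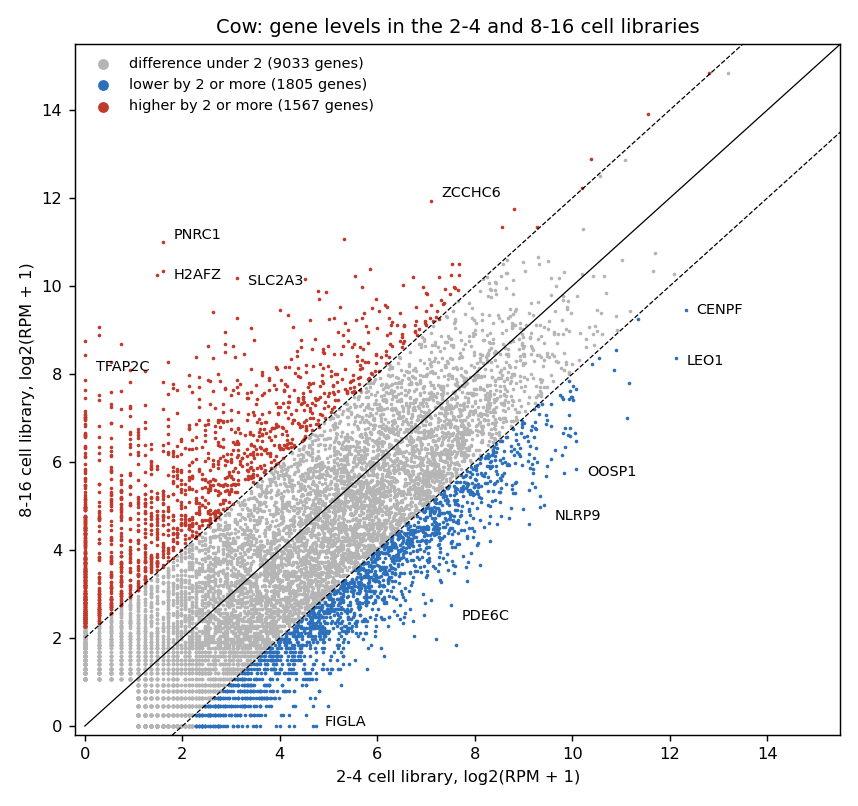
Level of each of the 12405 compared cow genes in the 2-4 cell library (horizontal) and the 8-16 cell library (vertical), both as log2(RPM + 1), with 1 library per axis. Dashed lines mark a difference of 2; the 1567 red points reach farther from the diagonal than the 1805 blue ones, and a column of red points stands at 0 on the horizontal axis.

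The largest rise belonged to PNRC1 (chromosome 9, 61921605 to 61925635, on the UMD3.1 build), a proline-rich coactivator of nuclear receptors. It had 9 reads, or 2.03 RPM (95% Wilson interval 1.07 to 3.85), at the 2-4 cell stage and 11036 reads, or 2032 RPM (1994 to 2069.8), at the 8-16 cell stage, a difference of 9.39. H2AFZ (chromosome 6, 26103022 to 26104344), which encodes the histone variant H2A.Z found at active promoters, rose from 2.03 to 1288 RPM, or 635-fold (95% counting interval 334 to 1389). GRO1, a CXC chemokine, had 0 reads and then 432 RPM, at least 639-fold higher. DNAJB9, a co-chaperone of the endoplasmic reticulum, had 0 reads and then 346 RPM, at least 512-fold higher. SGK1, a serum- and steroid-induced kinase, had 3 reads and 2229 reads, which is 607-fold (95% counting interval 207 to 2946). TFAP2C (chromosome 13, 59903160 to 59912715), a transcription factor of early embryo and trophoblast, had 0 reads in the oocyte and 2-4 cell libraries and 232 RPM (219 to 245) at the 8-16 cell stage. PDGFRA, the receptor that later marks primitive endoderm, had 4.46 RPM in the oocyte, 0 reads at the 2-4 cell stage and 198 RPM at the 8-16 cell stage. All 7 genes were low in both earlier libraries and high in the 8-16 cell library.

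The next risers included genes of sugar, purine and membrane lipid handling. SLC2A3, the high-affinity glucose transporter GLUT3, rose from 7.66 to 1157 RPM, or 151-fold (95% counting interval 108 to 218). PRPS1, which makes the sugar phosphate that nucleotide synthesis starts from, rose from 1.35 to 267 RPM, and PNP, which splits purine nucleosides, from 0.901 to 224 RPM. ETNPPL, an enzyme that breaks down phosphoethanolamine, had 3 reads and then 193 RPM. TRA2B, a splicing regulator, rose from 5.18 to 675 RPM, and TAF1D, a subunit of the factor that recruits RNA polymerase I, from 0.901 to 269.7 RPM. LGR5, a receptor for R-spondins and a stem cell marker in adult tissues, had 2 reads and then 191 RPM. PLS3, which bundles actin, and PCDH8, a protocadherin, each had 1 read at the 2-4 cell stage and then 184 and 169 RPM. BECN2, a Beclin family member, and ZNF41, a zinc finger gene, had 0 reads and then 175 and 133 RPM, and KLHL28 went from 2 to 859 reads. DDX3Y had 0 reads and then 143 RPM; the table places it on chromosome X, and reads of its near-identical partner DDX3X could be split between both. Further genes without a read at the 2-4 cell stage were MOG (129 RPM at the 8-16 cell stage), which overlaps another row, CT55 (127 RPM) and the cytokine IL18 (126 RPM). Of the 337 risers with 0 reads at the 2-4 cell stage, 154 reached 10 RPM and 15 reached 100 RPM.

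Falls had a narrower range. PDE6C (chromosome 26, 14956031 to 15009228), a cone photoreceptor phosphodiesterase subunit, showed the largest on the log2(RPM + 1) scale, from 182 RPM (95% Wilson interval 169 to 195) to 5.71 RPM (4.02 to 8.10), 31.8-fold. PARP12, an ADP-ribosyltransferase, had 553 RPM at the 2-4 cell stage and 23.01 RPM at the 8-16 cell stage. KIDINS220, a membrane scaffold of neurotrophin receptors, fell from 649 to 30.4 RPM and PHACTR3, a regulator of protein phosphatase, from 275 to 11.6 RPM. MMAA, needed for the cobalamin cofactor of mitochondria, fell from 225 to 11.2 RPM, and SDCBP, the adaptor syntenin, from 124 to 4.79 RPM. Genes known from the egg stood among these 20: FIGLA, NLRP9 and OOSP1, which are described below. SPESP1, named for the sperm equatorial segment, fell from 22.3 to 0.184 RPM. RAB27B, a small GTPase of vesicle release, went from 115 reads to 0, at least 46.9-fold lower, and IL18RAP, a chain of the receptor for the cytokine IL18, from 136 reads to 2. Others were TMEM242 (107 to 3.13 RPM), GTF2IRD2 (69.2 to 2.02 RPM), PDXDC1 (227 to 8.84 RPM), TPMT (54.1 to 1.47 RPM), SOSTDC1 (105 to 4.23 RPM), CLDN10 (66.2 to 2.39 RPM), PALM3 (136 to 6.26 RPM) and AARD (24.6 to 0.368 RPM). Below these, genes with reads at the 2-4 cell stage and 0 at the 8-16 cell stage included CSTB (18.7 RPM), CLDN11 (17.3 RPM), FPGT (15.1 RPM) and CHST4 (11.04 RPM).

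**Figure D2:**
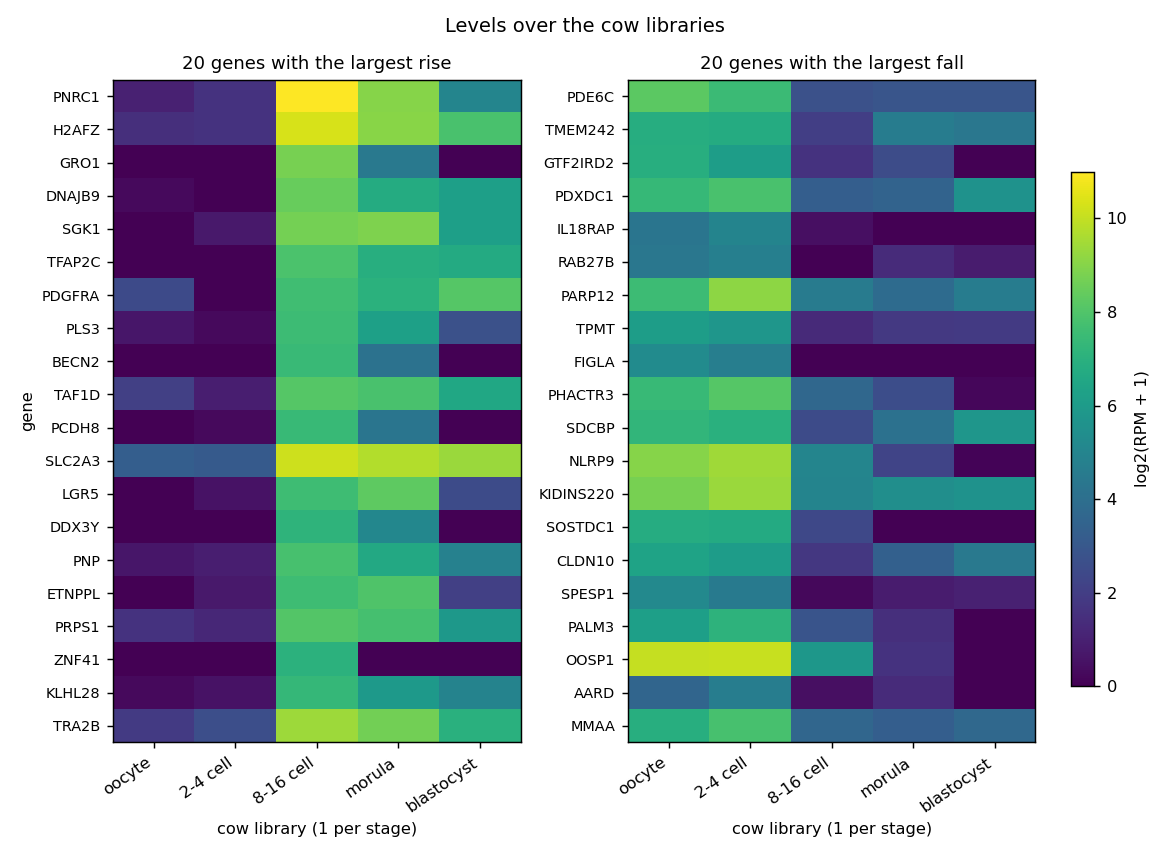
Level, as log2(RPM + 1) in colour, of the 20 genes with the largest rise (left) and the 20 with the largest fall (right) in the 5 cow libraries, 1 per stage. On the left the colour turns bright between the 2-4 and 8-16 cell columns, on the right it darkens there; GRO1, BECN2, PCDH8, DDX3Y and ZNF41 are dark again at the blastocyst stage, with 0 reads.

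Messages of the egg surface fell with 1 exception. In the list of zona pellucida (egg coat) and egg surface genes, 5 of 6 compared genes fell and 0 rose, with a median difference of -3.30. ZP2, the coat protein that sperm bind, fell from 2291 to 222 RPM, ZP4 from 229 to 18.2 RPM and OOSP1, an oocyte-secreted protein, from 1079.6 to 56.3 RPM. ASTL, the protease that cuts ZP2 after fertilisation, fell from 69.2 to 6.44 RPM. CD9, the egg membrane tetraspanin, had 4.28 and 4.97 RPM. Among oocyte growth factors, receptors and transcription factors, 6 of 10 fell, with a median of -2.62. GDF9, the oocyte's growth signal to the follicle, fell from 452 to 44.7 RPM, and its relative BMP15 had 1399 RPM and 404 RPM, a difference of -1.79. FIGLA, which drives zona gene transcription, had 110 reads and then 0. The receptor KIT fell from 364 to 48.4 RPM while its ligand KITLG was the single riser of the list, from 14.2 to 284 RPM, 19.99-fold.

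The subcortical maternal complex, an assembly under the egg membrane, is needed for the first divisions. Among its genes, with the NLRP family and other maternal effect genes, 6 of 9 compared genes fell and 0 rose (median -3.09). NLRP9 fell from 686 to 31.3 RPM, NLRP14 from 995 to 95.9 RPM and NLRP5 (MATER) from 127 to 9.39 RPM. NPM2, the egg nucleoplasmin that remodels sperm chromatin, fell from 157 to 8.65 RPM. DPPA3, which protects the maternal genome from demethylation, did not pass the threshold, at 2062 RPM and 1546 RPM. NLRP8 had 214 and 123 RPM, so the family did not fall as 1 block.

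Regulators of meiotic arrest and M-phase showed 10 falls and 1 rise among 29 compared genes, with a median of -1.64. GPR3, the receptor that keeps cAMP high in arrested oocytes, fell from 35.6 to 1.47 RPM, and PDE3A, the oocyte's cAMP phosphodiesterase, from 80.2 to 11.97 RPM (its row overlaps another). WEE2, the oocyte kinase that inhibits CDK1, fell from 804 to 76.2 RPM, and AURKC, the meiotic Aurora kinase, from 128 to 15.6 RPM. AURKA, the Aurora kinase of the spindle pole and 1 of the 10 rows with most reads at the 2-4 cell stage, fell from 2617 to 606 RPM; with median scaling it lay inside the threshold. CDK1 itself rose from 34.02 to 169.7 RPM, while its partner CCNB1 had 982 and 502 RPM. Proteins of meiotic chromosomes did not share these falls: of 12 compared 3 rose and 0 fell, with a median of 1.34. Over the 10 whose rows overlap no other the median was 0.51, and with a pseudocount of 5 RPM 1 rose. HORMAD1, a protein of unpaired meiotic axes, rose from 3.60 to 77.9 RPM. SGO1, which guards centromeric cohesin, had 738 RPM and 336 RPM.

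Genes of proteins that store and mask maternal messages had 9 falls and 2 rises among 20, with a median of -1.68. ZAR1, a binder of stored messages, fell from 38.1 to 2.02 RPM, its paralog ZAR1L from 154 to 23.01 RPM, and EIF4E1B, the oocyte cap-binding protein, from 68.3 to 8.10 RPM. PABPN1L, an oocyte poly(A)-binding protein, fell from 62 reads to 3, 25.3-fold (95% counting interval 8.26 to 126). IGF2BP1, an RNA-binding protein of embryonic cells, rose from 2 to 65 reads. In the piRNA pathway, which silences transposons in germ cells, 6 of 18 fell and 0 rose (median -1.59). The falls with the largest size were those of Tudor domain genes: TDRD5 fell from 185 to 12.5 RPM, TDRKH from 69.2 to 4.42 RPM and TDRD7 from 389 to 53.02 RPM.

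Machinery that shortens, tails and decaps messages moved both ways, with 6 rises and 4 falls among 29 genes (median -0.14). ZCCHC6 (TUT7), which adds uridines to short-tailed messages, rose from 136 to 3911 RPM, 28.7-fold, and was 1 of the 10 rows with most reads at the 8-16 cell stage. The antiproliferative BTG genes, whose products bind the CCR4-NOT deadenylase, split. BTG4, the oocyte member, fell from 1917 to 373 RPM, BTG1 rose from 20.7 to 394 RPM, and BTG3 had 1 read and then 44.00 RPM. PARN, PAN2 and CNOT3, of which the first and second are deadenylases and the third a CCR4-NOT subunit, fell from 124 to 21.7 RPM, 29.1 to 4.97 RPM and 114 to 21.9 RPM. The scaffold CNOT1 had 606 and 549.7 RPM.

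Transcription factors proposed as activators of the embryonic genome rose in 8 of 18 cases and fell in 0, with a median of 1.78. Besides TFAP2C, KLF4 rose from 26.6 to 948 RPM, 35.7-fold. ZSCAN4, a marker of genome activation in mouse, and DPPA2, an activator of early genes, had 0 reads at the 2-4 cell stage and 29.5 and 22.1 RPM at the 8-16 cell stage. TRIM24, a chromatin reader, had 635 RPM at the 2-4 cell stage and 346 RPM at the 8-16 cell stage.

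RNA polymerase II and its general factors changed in few cases, 4 rises and 2 falls among 29, with a median of 0.36. GTF2H1, a subunit of the promoter-opening factor TFIIH, rose from 12.6 to 198 RPM, and the polymerase subunit POLR2B from 62.9 to 531 RPM (overlapping row). In TFIID and its TBP relatives, 5 of 16 rose (median -0.24). TBPL2, the oocyte form of the TATA-binding protein, was the single faller (21.2 to 2.58 RPM), while TAF4B, TAF11 and TAF7L rose from 19.8 to 282 RPM, 3.60 to 62.6 RPM and 0 to 10.5 RPM. Mediator, the bridge between activators and polymerase, had 2 rises and 3 falls among 27 subunits (median -0.14); MED26 rose from 5.41 to 47.1 RPM, and MED4 fell from 122 to 21.2 RPM. Elongation and pausing factors had 7 rises and 3 falls among 27 (median -0.07), with members at both ends of the range. LEO1, a subunit of the PAF1 elongation complex and the fourth row by reads at the 2-4 cell stage, fell from 4486 to 327 RPM. ELL2, a subunit of the super elongation complex, rose from 21.9 to 1134 RPM, and HEXIM1, which holds the kinase P-TEFb inactive, from 1.35 to 70.7 RPM. SUPT4H1, an elongation factor of the DSIF pair, had 0 reads and then 111 RPM, at least 164-fold higher. For RNA polymerases I and III there were 3 rises and 2 falls among 15 (median -0.66); POLR3F went from 3 to 153 reads, and POLR1B fell from 95.98 to 17.9 RPM.

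Splicing factor genes rose more often than they fell. Of the genes compared, 20 of 68 rose (29.4%) and 1 fell, 49 had a positive difference, and the median was 1.51. SRSF3, a serine/arginine-rich factor, rose from 7.66 to 616 RPM, 80.5-fold, and SRSF6 from 4.73 to 123 RPM. Of the 9 SRSF genes compared, all 9 had a positive difference and 5 rose, and of 16 HNRNP genes 14 were positive and 5 rose. SNRPB, a core protein of the spliceosomal particles, went from 2 to 179 reads. PRPF4 fell from 274 to 61.7 RPM, a call that median scaling ends. HNRNPA2B1, a nuclear RNA-binding protein, had 382 and 1442 RPM, a difference of 1.91 that did not reach 2. The nuclear exosome, which degrades RNA, had 2 rises and 0 falls among 15 (median 0.72); EXOSC1 rose from 7.89 to 70.3 RPM. Among small nuclear and nucleolar RNA genes 4 of 20 (median 1.19) rose and 0 fell, and SNORA8 had 0 reads and then 21.5 RPM. A pseudocount of 5 RPM left 1 rise and a median of 0.38, and without a minimum the median over 49 genes was 0.37. Such genes often lie inside host genes, but none of the 20 compared rows overlaps another row here. Whether reads of host genes were counted for them was not tested.

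Among carriers between nucleus and cytoplasm, importin genes moved in both directions. Nuclear pore and transport receptor genes showed 7 rises and 2 falls among 52 (median 0.09). KPNA7, the importin alpha of oocytes, fell from 889 to 101 RPM, and KPNA2 from 325 to 59.3 RPM. KPNA4, another importin alpha, rose from 6.08 to 140.1 RPM, and the import receptors IPO7 and TNPO3 from 11.5 to 262 RPM and 7.66 to 209 RPM. The pore proteins NUP107 and NUP153 had 489 and 629 RPM at the 2-4 cell stage and 570.3 and 443 RPM at the 8-16 cell stage.

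Cytosolic ribosomal protein genes rose in 36 of 77 cases (46.8%) and fell in 0. 70 of the 77 had a positive difference, and the median was 1.92. The median was 1.58 over 46 large subunit genes, of which 20 rose, and 2.08 over 29 small subunit genes, of which 15 rose. RPL26 rose from 4.06 to 123 RPM, RPL9 from 3.83 to 115 RPM, RPS19 from 1.58 to 57.8 RPM and RPL23 from 2.25 to 71.8 RPM. The list as a whole went from 0.244% to 0.638% of the reads. RPL21 had 259 RPM and 199.5 RPM; ribosomal protein genes have many processed copies, so reads may be split between copies.

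Other parts of the translation apparatus had fewer rises for their number. In the nucleolus, 9 of 50 ribosome biogenesis genes rose and 2 fell (median 0.42). IMP3, a subunit of the small subunit processome, rose from 1.13 to 82.8 RPM, and NHP2 and NOP10, core proteins of pseudouridylating particles, from 2.48 to 37.6 RPM and 4.96 to 41.4 RPM. DKC1, the enzyme of the same particles, fell from 206 to 39.8 RPM. NPM1 and NCL, abundant nucleolar proteins, had 1370.2 and 803 RPM at the 2-4 cell stage and 1203 and 691 RPM at the 8-16 cell stage. Translation initiation factors had 7 rises and 4 falls among 51 (median 0.61). EIF1AX and EIF3A, which act on the small subunit, rose from 58.6 to 719 RPM and 185 to 1450.2 RPM. EIF4G3 fell from 174 to 19.9 RPM, and EIF5B, which joins the subunits and was 1 of the 10 rows with most reads at the 2-4 cell stage, had 2317 and 692 RPM. Of elongation and release factors 4 of 14 (median 1.09) rose and 0 fell; ETF1, which ends translation at stop codons, rose from 15.1 to 699.9 RPM, 46.4-fold. Cytosolic tRNA synthetases had 3 rises and 1 fall among 22 (median -0.23); YARS rose from 2.03 to 28.3 RPM and EPRS fell from 306 to 31.3 RPM. Mitochondrial ribosomal proteins, in contrast to the cytosolic ones, had a median of 0.11, with 10 rises and 4 falls among 73. A pseudocount of 5 RPM, or a threshold of 3, left 2 rises and 0 falls. MRPL1 rose from 5.63 to 63.7 RPM.

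**Figure D3:**
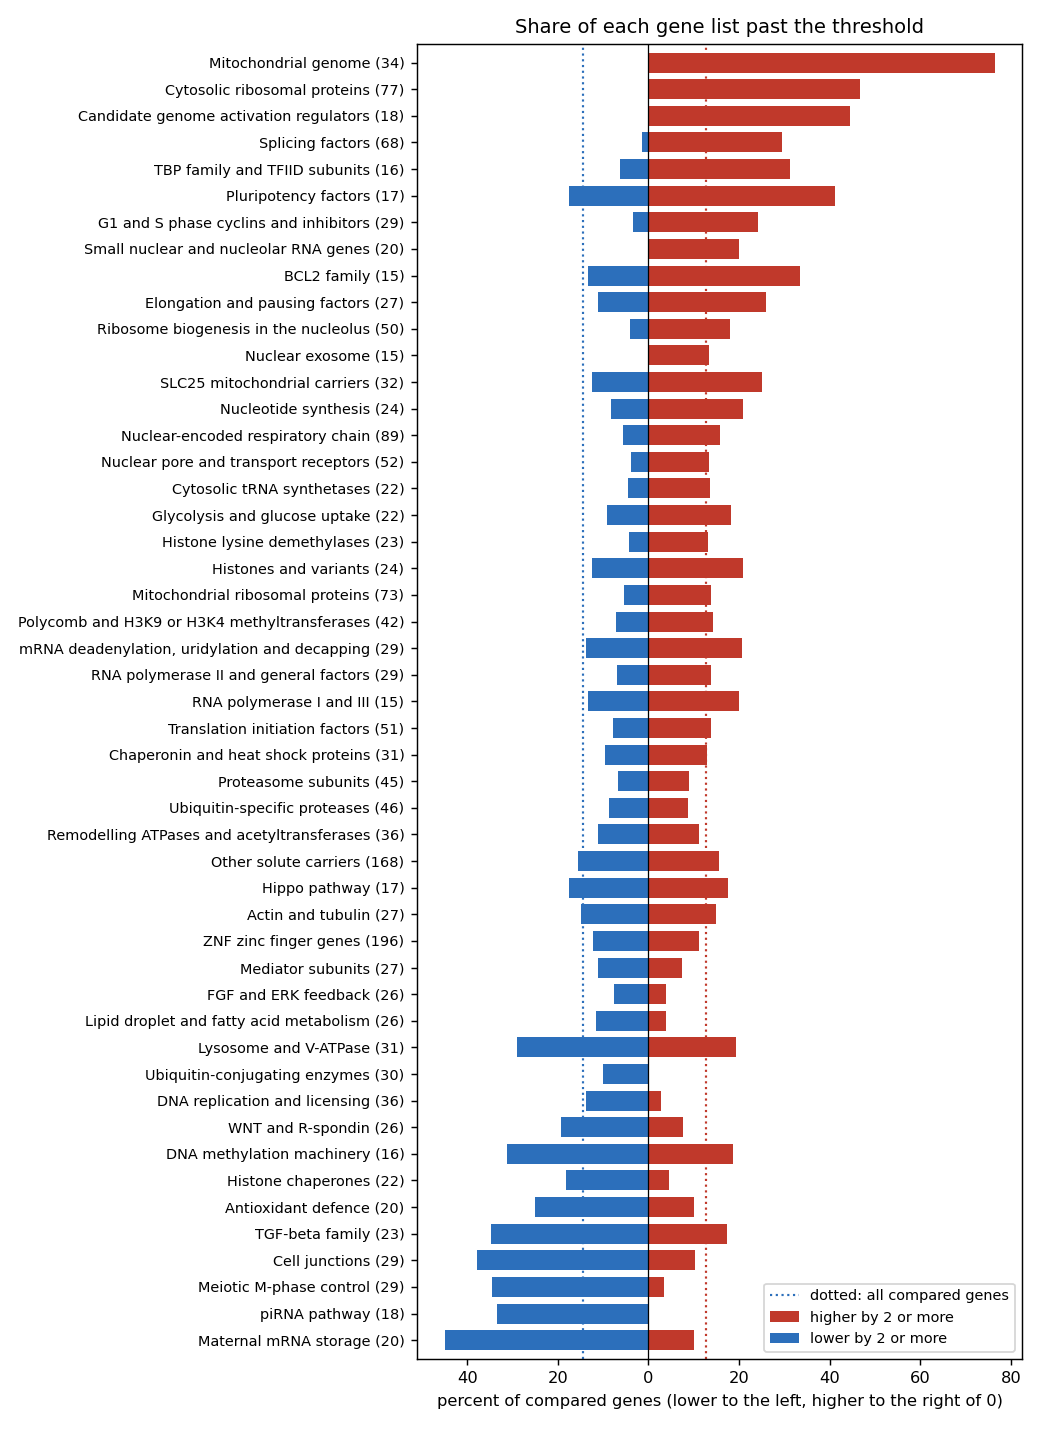
Percent of the compared genes of each list that rose (red, right) or fell (blue, left), for the 49 lists with at least 15 compared genes (number in brackets), ordered by the difference of both shares. Dotted lines mark the shares over all compared genes (12.6% and 14.6%); the mitochondrial genome and cytosolic ribosomal proteins stand at the top and maternal mRNA storage at the bottom.

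**Figure D4:**
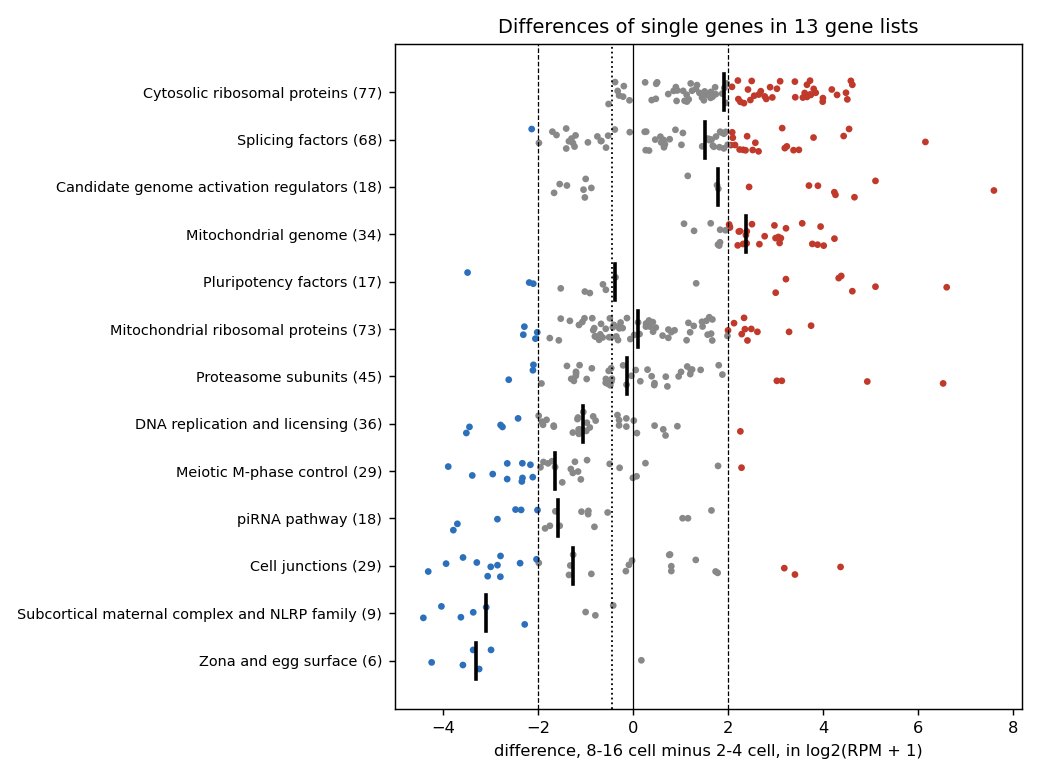
Difference between the libraries (8-16 cell minus 2-4 cell, log2(RPM + 1)) of every compared gene in 13 lists, with the number compared in brackets, red for genes that rose and blue for genes that fell. Black bars are list medians and the dotted line is the median of all compared genes (-0.44); ribosomal proteins lie almost wholly to the right of it, while 5 of 6 zona genes, from ZP3 (-2.99) to OOSP1 (-4.24), lie to the left.

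All 34 compared genes of the mitochondrial genome had a positive difference, and 26 rose (median 2.39). COX1, a subunit of cytochrome oxidase, rose from 2981 to 15499 RPM, ND5 of complex I from 1333 to 7572 RPM and ND1 from 1173 to 4823 RPM. With quantile normalisation COX1 and ND1 no longer passed the threshold. The row of ATP8, of the ATP synthase, had 2149 and 7433 RPM, and that of MT-ND4L 1507 and 5821 RPM. These rows run from 8129 to 9750 and from 10239 to 11906 on the mitochondrial genome. Their levels are those of the whole stretches and may include neighbouring genes. The pair of mitochondrial rows with most reads in both libraries carried identifiers only. The COX1 and ND5 rows each overlap a row on the opposite strand, and strand handling is not given in the sources used here. Nuclear genes of the respiratory chain were counted apart, with 14 rises and 5 falls among 89 and a median of 0.37. Complex IV had the highest median of the 5 complexes, 0.93 over 13 genes, and complex I a median of -0.01 over 44 genes. COX7B and COX7C of complex IV rose from 2.03 to 82.1 RPM and 1.58 to 59.8 RPM, and NDUFAF2, which helps to assemble complex I, from 9.69 to 191 RPM. NDUFV2 of complex I fell from 32.2 to 5.52 RPM.

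Sugar handling genes moved both ways. Of 22 genes of glucose uptake and glycolysis 4 rose and 2 fell (median -0.60). Besides SLC2A3, HK2, which traps glucose, rose from 9.46 to 98.1 RPM, PGK1 from 8.79 to 97.6 RPM and TKT, of the pentose phosphate branch, from 4.96 to 227 RPM. HK1 fell from 28.8 to 4.97 RPM, and LDHA, which turns pyruvate into lactate, from 510.3 to 29.6 RPM, 17.2-fold. Nucleotide synthesis had 5 rises and 2 falls among 24 (median 0.34). The purine enzymes GART and PPAT rose from 2.70 to 198 RPM and 28.4 to 380.3 RPM (the PPAT row overlaps another), and CAD, which starts pyrimidine synthesis, from 0.901 to 71.2 RPM. MTHFD1, which supplies folate carbon, fell from 241 to 14.4 RPM, and GMPS from 412 to 60.01 RPM.

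Carriers, lipids and redox genes followed no single direction. SLC25 carriers of the mitochondrial membrane had 8 rises and 4 falls among 32 (median -0.12). Under median scaling and under quantile normalisation 8 rose and 1 fell. The phosphate carrier SLC25A3 went from 2 to 303 reads, and SLC25A36, a pyrimidine nucleotide carrier, rose from 25.2 to 444 RPM. Other solute carriers had equal numbers as deposited, 26 rises and 26 falls among 168 (median -0.56). Median scaling gave 28 rises and 18 falls, and a pseudocount of 0.5 RPM gave 27 and 36. SLC33A1, which moves acetyl-CoA, went from 3 to 792 reads, and SLC7A3, an arginine transporter, fell from 41.9 to 3.68 RPM. Lipid droplet and fatty acid genes had 1 rise and 3 falls among 26 (median -0.80); ACSL1 rose from 6.98 to 62.96 RPM, and the droplet coat gene PLIN2 and the sterol enzyme HMGCS1 fell from 91.7 to 17.5 RPM and 582 to 52.5 RPM. Antioxidant genes had 2 rises and 5 falls among 20 (median -1.33). The peroxiredoxins PRDX1 and PRDX2 fell from 76.8 to 11.04 RPM and 94.4 to 7.73 RPM, while PRDX4, the peroxiredoxin of the endoplasmic reticulum, rose from 2.93 to 32.95 RPM.

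DNA replication genes had 1 rise and 5 falls among 36 (median -1.05). LIG1, which joins Okazaki fragments, fell from 918 to 79.9 RPM and the helicase subunit MCM5 from 21.9 to 1.10 RPM, while FEN1, which trims those fragments, rose from 2.70 to 16.8 RPM. G1 and S phase regulators had 7 rises and 1 fall among 29 (median -0.22). The S phase cyclins CCNE1 and CCNE2 rose from 7.43 to 84.5 RPM and 4.06 to 54.5 RPM, and MYC, a growth-promoting transcription factor, had 0 reads and then 25.8 RPM. CCNA2 had 445 and 550.2 RPM.

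Histone genes included an oocyte variant that fell and general variants that rose. Of 24 compared (median -0.47), 5 rose and 3 fell. H1FOO, the oocyte linker histone, fell from 191 to 10.1 RPM, 18.8-fold, and HIST1H1A from 1039 to 209.7 RPM. H2AFZ, given above, and H2AFY (macroH2A) rose, the latter from 10.1 to 133 RPM. Histone genes are near-identical copies, and reads of replication-dependent histones could be split among them. Histone chaperones had 1 rise and 4 falls among 22 (median -0.94). Median scaling and quantile normalisation each left 1 rise and 1 fall, and scaling to non-mitochondrial gene reads 1 and 2. ANP32E, which removes H2A.Z from chromatin, fell from 406 to 60.2 RPM, and ANP32B rose from 92.8 to 428 RPM.

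Genes of chromatin modification were counted in 4 lists. Lysine demethylases had 3 rises and 1 fall among 23 (median -0.28): KDM5B, which removes H3K4 methylation, rose from 2.93 to 88.5 RPM, KDM6A, which removes H3K27 methylation, from 6.08 to 69.6 RPM, and KDM1B fell from 112 to 15.1 RPM (overlapping row). Polycomb and other histone methyltransferase genes had 6 rises and 3 falls among 42 (median -0.94). The core PRC2 subunits EED and SUZ12 rose from 8.11 to 218 RPM and 72.5 to 469.6 RPM, and EHMT2, an H3K9 methyltransferase, fell from 54.3 to 6.07 RPM. Remodelling ATPases, acetyltransferases and deacetylases had 4 rises and 4 falls among 36 (median -0.77); BRDT, a germ line bromodomain gene, rose from 3.38 to 253 RPM, CHD1 from 51.6 to 664 RPM, and PBRM1 fell from 317 to 46.4 RPM. In the DNA methylation machinery 3 rose and 5 fell of 16 (median -1.26); among the 14 whose rows overlap no other 1 rose and 5 fell. DNMT1, which copies methylation after replication, fell from 557 to 57.4 RPM, its recruiter UHRF1 from 619.8 to 62.8 RPM and the de novo enzyme DNMT3B from 139 to 11.4 RPM. TET1, which oxidises methylcytosine, rose from 2.48 to 203 RPM (overlapping row), 81.9-fold.

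Apoptosis regulators of the BCL2 family had 5 rises and 2 falls among 15 (median 0.31). With a pseudocount of 5 RPM, or with a threshold of 3, no gene of this list passed in either direction. The protective BCL2 rose from 2.93 to 22.6 RPM and the protective BCL2L1 fell from 29.1 to 3.68 RPM. Proteasome genes had a median of -0.14, with 4 rises and 3 falls among 45; the core subunits PSMA1 and PSMA2 rose from 1 read to 609 and from 1.58 to 77.7 RPM. Chaperones had 4 rises and 3 falls among 31 (median -0.56); the chaperonin gene CCT6A went from 2 to 212 reads, and HSP90B1, the HSP90 of the endoplasmic reticulum, fell from 1839.5 to 273 RPM. HSPA8 had 585 and 645 RPM. Ubiquitin-conjugating enzymes had 0 rises and 3 falls among 30 (median -0.53), with UBE2Q1 falling from 438 to 38.1 RPM. Ubiquitin-specific proteases had 4 rises and 4 falls among 46 (median -0.60); USP3 rose from 6.08 to 119 RPM, and USP48 fell from 575 to 44.9 RPM. Lysosome and V-ATPase genes had 6 rises and 9 falls among 31 (median -0.89). Median scaling gave 8 rises and 6 falls, scaling to non-mitochondrial gene reads 8 and 9, and quantile normalisation 7 and 8. The protease gene CTSL2 rose from 6.31 to 359 RPM, and CTSB and LAMP1 fell from 263 to 39.2 RPM and 63.1 to 6.81 RPM.

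Regulators known from the later embryonic lineages moved both ways. Of 17 compared pluripotency genes 7 rose and 3 fell (median -0.37). Over the 13 with at least 5 RPM in either library the same counts gave a median of 3.004. Under median scaling and under quantile normalisation 7 of the 17 rose and 1 fell. NANOG, which keeps the epiblast undifferentiated, had 0 reads and then 116 RPM (95% Wilson interval 107 to 125), at least 172-fold higher. ZFP42 had 0 reads and then 24.1 RPM, and PRDM14 2 reads and then 34.6 RPM. SOX2 fell from 15.1 to 2.76 RPM, a call that median scaling ends, and POU5F1, chosen after its values were seen, had 4.73 and 1.84 RPM. STAT3, the transcription factor of LIF signalling, fell from 750.0 to 66.3 RPM. Trophectoderm genes had 5 rises and 1 fall among 13 (median 0.87). AQP3, a water channel, rose from 5.41 to 112 RPM, and CDH1 had 72.1 and 67.9 RPM. The faller was PTGS2 (60.8 to 4.42 RPM), which is also a cumulus and granulosa cell marker. The keratin genes KRT8 and KRT18 were under 1 RPM in both libraries. Among primitive endoderm genes 2 rose and 3 fell of 11 (median -0.58). GATA6, an early regulator of that lineage, had 0 reads and then 34.98 RPM. The lineage marker COL4A1 fell from 5.41 to 0.368 RPM, a call that a pseudocount of 5 RPM ends (-0.955). GATA4 had 1.13 and 0.184 RPM, and SOX17 had 0 reads in both libraries.

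Signalling genes moved both ways. Hippo pathway genes had 3 rises and 3 falls among 17 (median -0.60): WWTR1 (TAZ), the pathway's coactivator, rose from 2.25 to 28.3 RPM, TEAD4, its DNA-binding partner, had 0 reads and then 5.89 RPM, and AMOT, which holds the coactivators in the cytoplasm, fell from 143 to 28.2 RPM. FGF ligands, receptors and ERK feedback genes had 1 rise and 2 falls among 26 (median -0.67); the antagonist SPRED2 fell from 23.4 to 3.31 RPM. WNT and R-spondin genes had 2 rises and 5 falls among 26 (median -0.98). LGR5, given above, and the inhibitor DKK1 (2.25 to 19.1 RPM) rose. WLS, which exports WNT proteins, and LEF1, a transcription factor of the pathway, fell from 153 to 13.4 RPM and 208 to 28.7 RPM. TGF-beta family genes had 4 rises and 8 falls among 23 (median -1.25). The type II receptors ACVR2A and ACVR2B rose from 20.7 to 158 RPM and 9.69 to 83.2 RPM, and the BMP type I receptors BMPR1A and BMPR1B fell from 292 to 21.9 RPM and 186 to 24.9 RPM, as did the BMP mediator SMAD5 (375 to 50.1 RPM).

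Cell contact genes fell more often than they rose. Of 29 junction genes 11 fell and 3 rose (median -1.26). The median was -0.51 with a pseudocount of 5 RPM and also without a minimum, and -0.15 over the 25 genes whose rows overlap no other, of which 9 fell. CDH3, P-cadherin, fell from 264 to 16.4 RPM, the tight junction genes CLDN10 and CGN from 66.2 to 2.39 RPM and 24.1 to 1.10 RPM, and F11R, a tight junction adhesion molecule, rose from 1.58 to 52.3 RPM. The desmosomal DSC2 had 0 reads and then 9.94 RPM. Actin and tubulin genes had 4 rises and 4 falls among 27 (median -0.02). Among alpha-tubulins TUBA1A rose from 6.31 to 497 RPM, 78.7-fold, TUBA1C fell from 210.2 to 20.8 RPM, and TUBA1B had 222 and 654 RPM; the 3 are close copies whose reads may be split. Thymosins also went both ways, with TMSB10 rising from 22.1 to 123 RPM and TMSB4X falling from 957 to 97.6 RPM. ZNF zinc finger genes, the largest list with 196 compared (median -0.42), had 22 rises and 24 falls, near the shares over all genes; ZNF608 rose from 9.69 to 277 RPM and ZNF2 fell from 93.3 to 6.26 RPM.

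Across the 5 cow libraries, the genes that rose had median levels of 2.03 RPM in the oocyte, 2.03 at the 2-4 cell stage, 34.2 at the 8-16 cell stage, 34.9 in the morula and 19.2 RPM in the blastocyst. For the genes that fell the medians were 32.7, 45.5, 6.26, 5.39 and 7.62 RPM in the same order. Oocyte, morula and blastocyst libraries were not used to choose these genes, but their neighbours' comparisons share a library with this one, so the values stand side by side as a description. Single genes took different courses after the 8-16 cell stage. ZNF41 had 0 reads in the morula and blastocyst libraries, and GRO1 went from 432 RPM to 20.5 RPM in the morula and 0 reads in the blastocyst. ZCCHC6 kept 2789 RPM in the morula and had 49.7 RPM in the blastocyst. TET1 went on to 459 RPM in the morula and 625 RPM in the blastocyst, and GATA6 to 232 and 226 RPM. Among fallers, OOSP1 had 2.05 RPM in the morula and 0 reads in the blastocyst, while CTNNA1, an adherens junction protein that fell from 433 to 43.4 RPM (overlapping row), had 319.8 RPM in the morula and 814 RPM in the blastocyst. KIT had 10.3 RPM in the morula and 288 RPM in the blastocyst.

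**Figure D5:**
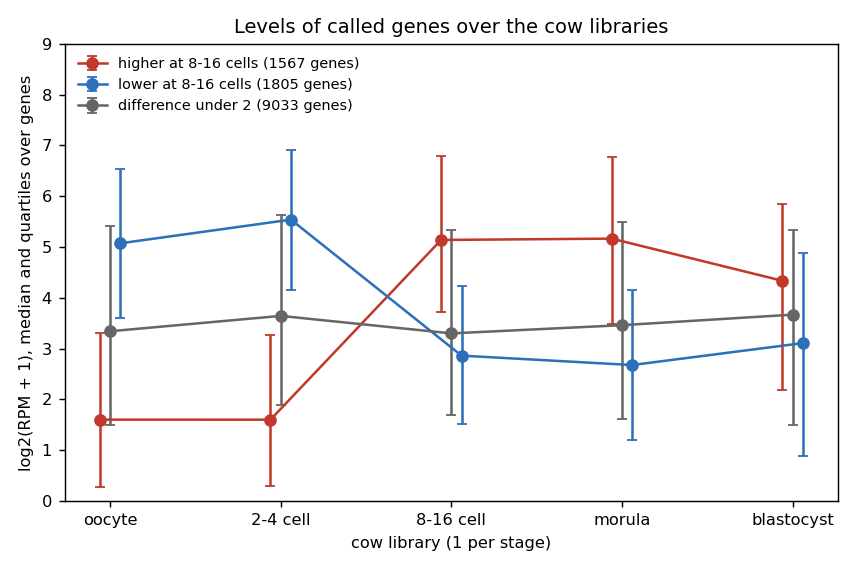
Median level with quartiles over genes, as log2(RPM + 1), of the genes that rose (1567), fell (1805) or did neither (9033) between the 2-4 and 8-16 cell libraries, in each of the 5 cow libraries. Red and blue cross between the 2-4 cell and 8-16 cell stages, where the genes were chosen; outside that step the medians of the red group were 2.03 RPM (oocyte) and 34.9 RPM (morula).

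Chromosome X had the highest share of risers among the nuclear chromosomes, 91 of 468 compared genes (19.4%), against 1450 of 11903 autosomal genes (12.2%). Falls took 13.9% of the X-linked and 14.6% of the autosomal genes. In a separate median scaling, with 102 X-linked and 1711 autosomal risers, the shares of risers were 21.8% and 14.4%. These counts do not match the 1799 risers given above, so that scaling was not computed in the same way. Of the 91 X-linked risers 35 had 0 reads at the 2-4 cell stage. By size they were led by PLS3, DDX3Y, PRPS1, ZNF41 and CT55, all given above, and by STAG2, a cohesin subunit chosen after its values were seen, from 9.69 to 524 RPM. The 91 include DDX3Y and eIF1AY (0 reads and then 4.60 RPM), which are placed on chromosome X here although their symbols name Y-linked copies. Their true position was not tested. X chromosome reads as a whole took 2.01% of the 2-4 cell library and 1.78% of the 8-16 cell library. The lowest share of risers was that of chromosome 25, 22 of 411 genes (5.35%), where 57 fell.

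Genes that were high at the 2-4 cell stage fell more often: 516 of 1861 genes with at least 100 RPM there fell (27.7%) and 42 rose, against 249 falls and 590 rises among 4184 genes with 1 to 10 RPM. These classes are set by the same 2-4 cell value that enters the difference, so the trend is a description. By span on the genome, and outside the mitochondrial genome, the share of risers lay between 10.6% (over 100 kb) and 13.4% (20 to 50 kb), and the share of fallers between 13.5% (5 to 20 kb) and 16.5% (over 100 kb). The median span was 24.8 kb for risers, 27.9 kb for fallers and 24.2 kb for the rest. Neighbouring compared genes with the same call formed runs: 34 of 3 risers, 3 of 4 and 2 of 5, and 37 of 3 fallers, 7 of 4 and 1 of 5. Some runs hold rows of related genes, such as SPIN2 and SPIN2B. Whether runs were more frequent than calls in random order would give was not tested. On chromosome 20, 9843386 to 10108491, MCCC2, BDP1, SERF1, SMN1 and NAIP all rose; BDP1 is a subunit of the initiation factor of RNA polymerase III. On chromosome 5, 33189704 to 34480031, PCED1B, AMIGO2, SLC38A2, SLC38A1 and SCAF11 rose, among them both neighbouring neutral amino acid transporters. On chromosome 10, 12099600 to 12448221, CILP, PARP16, DPP8, HACD3 and INTS14 fell, and 1 of these rows overlaps another. NANOG and SLC2A3 were neighbours on chromosome 5 in a run of 3 risers with an identifier row.

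In pig, the step of the same name called far fewer genes. Over the 8196 symbols that could be compared in both species, 326 pig genes rose (3.98%) and 34 fell (0.415%), against 1001 (12.2%) and 1239 (15.1%) in cow. Risers of both species numbered 107, which is 10.7% of the cow risers and 32.8% of the pig risers, and 6 genes fell in both. Of the cow risers 4 fell in pig at this step, and of the cow fallers 18 rose in pig. The next pig step, from the 8-16 cell embryo to the morula, was closer in number, with 1029 rises (12.1%) and 939 falls (11.1%) over 8474 shared symbols. It shared 231 risers with the cow step (22.3% of cow, 22.4% of pig) and 303 fallers (23.7% and 32.3%), while 49 cow risers fell and 76 cow fallers rose at that pig step. In pig PNRC1 had 25.4 RPM at the 2-4 cell, 174 RPM at the 8-16 cell and 376 RPM at the morula stage, and H2AFZ had 10.6, 102 and 268 RPM. NLRP9 had 399.9, 439 and 29.6 RPM in the same pig libraries, so in pig it fell at the step after the one at which it fell in cow. PLS3, which rose in cow, had 76.1, 55.0 and 38.3 RPM in pig. The cow and pig tables were scaled apart from each other, and levels are compared only within a species.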

How the data were processed

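The deposited cow and pig tables hold log2 RPM per gene row, made by the authors, with 1 column per stage and 1 library per column. Per the labels' protocols, total RNA was extracted with a PicoPure kit, amplified with the Ovation RNA-Seq System V2 and given 8 PCR cycles. Per the submitters' processing notes, Trim Galore 0.6.4, HISAT2 2.1.0 and the builds UMD3.1 (cow) and Sscrofa11.1 (pig) were used; the annotation, the counting, strand handling and treatment of duplicates are not given in the sources used here. Whole-transcript libraries counted in RPM are not scaled to gene length, so levels were compared within a gene only.

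In every library the deposited values were whole multiples of 1 read (tolerance 0.01 reads, 100% of values), with 0 reads written as 0.9 of a read, so read counts were recovered and library totals taken from them. The difference was log2(RPM + 1) at the 8-16 cell stage minus that at the 2-4 cell stage, over rows with at least 1 RPM in either library, with 2 as the threshold. With 1 library per stage no count model and no test was run. Wilson 95% intervals and the floor of 3 reads cover counting error only, since PCR reads without molecular identifiers are not independent molecules. Ratios against 0 reads use the floor.

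The members and the 58 gene lists were chosen with earlier results of these data known. Named genes were the 20 largest rises and falls, the 10 rows with most reads in each library, the 10 highest genes with 0 reads in the other library, the longest runs, and from each list up to 4 rises, up to 4 falls and 2 other members with most reads; the text gives a choice of these. The list of sperm and blood cell markers had no compared gene and so no rise or fall. The procedure was tested on simulated data. Alternatives for pseudocount, minimum, threshold, scaling and depth were tried. Rows with an identifier only (4144) were not named. Promoter motifs were not analysed here. Calculations used Python 3.11.15, numpy 2.4.6, pandas 2.3.3, scipy 1.17.1 and matplotlib 3.10.9. Some genes of the lists are not reported here by name.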

Additional observations from a re-analysis of the deposited data

Results flagged for a closer look

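Over all shared symbols, 4 of 1001 cow risers and 18 of 1239 cow fallers went past the threshold in the opposite direction in pig at the same step. Over all 8196 symbols 0.415% fell and 3.98% rose in pig, so opposite calls were no more frequent among these cow genes. Among the genes that the naming rule covers there were 4, all cow fallers; with 1 library per stage in each species the difference between species was not tested. HK1, a hexokinase, had a difference of -2.32 in cow and 2.07 in pig, where it was listed at 0 reads at the 2-4 cell stage and had 4.11 RPM at the 8-16 cell stage. DKK3, a secreted protein of the Dickkopf family, had -2.87 in cow and 2.23 in pig, from 3.38 to 19.6 RPM. ATP5A1, the alpha subunit of the ATP synthase, had -2.26 in cow and 2.07 in pig, from 3.14 to 16.4 RPM. USP43, a ubiquitin-specific protease, had -2.03 in cow and 2.07 in pig, from 10.9 to 49.0 RPM. In cow ATP5A1 lay inside the threshold under median scaling (-1.998) and quantile normalisation (-1.94), HK1 with a pseudocount of 5 RPM (-1.76), and USP43 under median scaling (-1.83), at equal depth (-1.86) and with a pseudocount of 5 RPM (-1.08).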

How the results depend on the processing

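No paired analysis was possible because each stage had 1 library, and for the same reason no library could be left out. The counts moved by more than 1.5 times under 3 of the alternatives. With a pseudocount of 5 RPM, 1783 genes changed, 888 higher and 895 lower. With a threshold of 1, 7801 changed (3175 higher, 4626 lower), and with a threshold of 3, 1123 changed (740 higher, 383 lower). Under median scaling, scaling to non-mitochondrial gene reads and quantile normalisation, risers made up 57.1%, 54.4% and 55.1% of the changed genes, against 46.5% as deposited, with 1799, 1958 and 1750 higher and 1353, 1638 and 1427 lower. The median of all genes stayed below 0 under every alternative run and moved by at most 0.24. Of the named genes, 1 mitochondrial row without a symbol went to 0 under quantile normalisation; no other named gene past the threshold changed sign. Without the rows that overlap another row, an alternative chosen after seeing the data, 3089 of 11285 genes changed. Counting 0 reads as 0 RPM, chosen likewise, gave 3459. The planned motif alternatives were not run. Differences in genes of a few reads were limited by depth, with 1 read worth 0.225 and 0.184 RPM.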
